A study of Homo sapiens with 6 samples.

Results

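The mitochondrial ribosomal protein genes were compared between benign prostate epithelial cells with and without overexpression of the miR-183 family cluster. The members were the genes whose annotated symbol starts with MRPL or MRPS, followed by a number and, for some, a letter A to C, which gave 73 of the 14884 named genes on the arrays. Gene expression had been measured in RWPE-1 cells, an established line of benign human prostate epithelium, grown in KSFM medium and harvested before full confluence. RWPE1-CTRL cells carried the CD511B-1 lentivirus with a scrambled control sequence, and RWPE1-183FC cells carried the same vector with the genomic region of miR-183, miR-96 and miR-182. Both groups were sorted for the vector's GFP as polyclonal populations, and untransduced cells were not analysed here. There were 3 biological replicates in each group and 1 array for each, and whether replicates came from separate transductions was not given in the sources used here.

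Mitochondria hold their own ribosome, the mitoribosome, which translates the few proteins encoded by mitochondrial DNA, all of them core subunits of the respiratory chain and the ATP synthase. Its RNA comes from mitochondrial DNA, but all of its proteins are encoded in the nucleus, made in the cytosol and imported. The MRPL genes encode proteins of the large subunit, where the peptide bond is formed, and the MRPS genes those of the small subunit, where the messenger RNA is decoded. Many have bacterial homologues, and others are found only in mitochondria.

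The overexpressed cluster encodes 3 microRNAs, whose mature sequences are shown because they define the RWPE1-183FC group. They are from RefSeq (GRCh38.p14, chromosome 7, minus strand), printed 5′ to 3′ with the seed, bases 2 to 8, in capitals.
miR-183-5p: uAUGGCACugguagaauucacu
miR-96-5p: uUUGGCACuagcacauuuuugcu
miR-182-5p: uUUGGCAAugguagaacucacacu
The seeds of all 3 differ, but only in the first base, the last base or both, and share UGGCA in between. As a check of the labels, MIR96 had log2 signals of 2.46, 2.67 and 1.92 in RWPE1-CTRL and 5.19, 5.54 and 5.93 in RWPE1-183FC. MIR183 had 3.03, 2.27 and 2.31 against 4.05, 4.42 and 4.55. Both were higher in every RWPE1-183FC array, with log2 fold changes of 3.20 and 1.80 (limma without a filter, adjusted p = 0.0017 and 0.035). MIR182 was at 2.67, 2.90 and 3.24 against 3.28, 3.11 and 3.44, with overlapping arrays.

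The mean of every member over the 6 arrays lay above 5.03, the median of these means over all named genes on the log2 scale. The members' means ran from 5.07 (MRPL52) to 9.54 (MRPS21), with a median of 7.21. These are probe signals, which differ between genes for technical reasons, so levels were not compared between members. The 5 brightest members were MRPS21, MRPS10, MRPL45, MRPS15 and MRPS7, and the 5 dimmest were MRPL52, MRPL23, MRPL54, MRPS33 and MRPL33. Within the groups the members varied little. The pooled SD between replicates had a median of 0.17 over the members, against 0.20 over all named genes and 0.20 over the 7442 genes above the median signal. It was lowest for MRPS16 (0.08) and highest for MRPL15 (0.52), both proteins with a bacterial homologue. The arrays correlated at 0.974 to 0.988 with one another over all named genes. Of 10 measured markers of basal epithelium and luminal prostate cells, 6 lay above the median signal. KRT5, KRT14, KRT18 and EPCAM had array values of 8.29 to 10.58, KRT8 and KRT19 of 5.31 to 6.97, and KRT15, with group means of 4.50 and 5.46, lay below the median. Of the 11 measured markers of fibroblasts, leukocytes and endothelium, VIM and CD68 lay above the median signal, and the secretory markers KLK2 and KLK3 lay below it. Of these keratins, KRT15 rose by 0.96 and KRT19 fell by 1.11 on the log2 scale (limma with the filter, adjusted p = 0.0063 and 0.0009). Without the filter their adjusted p were 0.18 and 0.14 (limma). KRT5, KRT14, KRT8 and KRT18 had log2 fold changes of -0.20, -0.09, 0.28 and 0.02 (limma without the filter, adjusted p = 0.9998 each). The part of shifts like those of KRT15 and KRT19 in the members' values was not tested.

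None of the 73 mitochondrial ribosomal protein genes analysed here passed the test between RWPE1-183FC and RWPE1-CTRL. Genes were first removed where the median signal or the variance over the arrays fell in the lowest 20% of all named genes, and limma was then applied at an FDR under 0.2 and a change of more than 1.5-fold. Of the 73 members, 51 passed this filter and 0 were called, where 0.939% of all genes that passed were called. All 22 others had been removed for low variance, which is 30.1% of the members against 22.5% of the genes above the median signal. With no filter 0 of the 73 were called, against 0.242% of all named genes. An unadjusted limma p under 0.05 was reached by 0 members in either fit, against 4.78% of all named genes without the filter. The lowest adjusted p of a member was 0.9992 with the filter and 0.9998 without it (limma).

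The intervals of the differences set a limit on changes that could have gone unseen. For 64 of the 73 members (87.7%) the 95% interval of the unfiltered limma fit lay within 1.5-fold in both directions, against 69.0% of the genes above the median signal. The interval reached past 1.5-fold higher for MRPL14, MRPL17, MRPL19, MRPL23, MRPL27, MRPL44 and MRPL55, and past 1.5-fold lower for MRPL15 and MRPS31. The widest bounds on the log2 scale were 0.79 for MRPL14 and -0.80 for MRPL15. For these 9 genes a change of 1.5-fold lies within the interval of this fit, with 3 arrays in each group. The lowest unadjusted p of a member was 0.16 with the filter and 0.080 without it (limma). Intervals of the filtered fit are not given here, so the count of 9 holds for the unfiltered fit only. The members' log2 fold changes ran from -0.23 (MRPS25) to 0.31 (MRPL19), with a median of 0.02 and quartiles of -0.05 and 0.14. Over all named genes the median was 0.01 and the quartiles were -0.11 and 0.12. The mean was higher in RWPE1-183FC for 42 members (57.5%) and lower for 31, and 52.0% of all named genes had a higher mean. Without RWPE1-183FC replicate 1 the members' median was -0.02, so it has no firm sign.

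**Figure D1:**
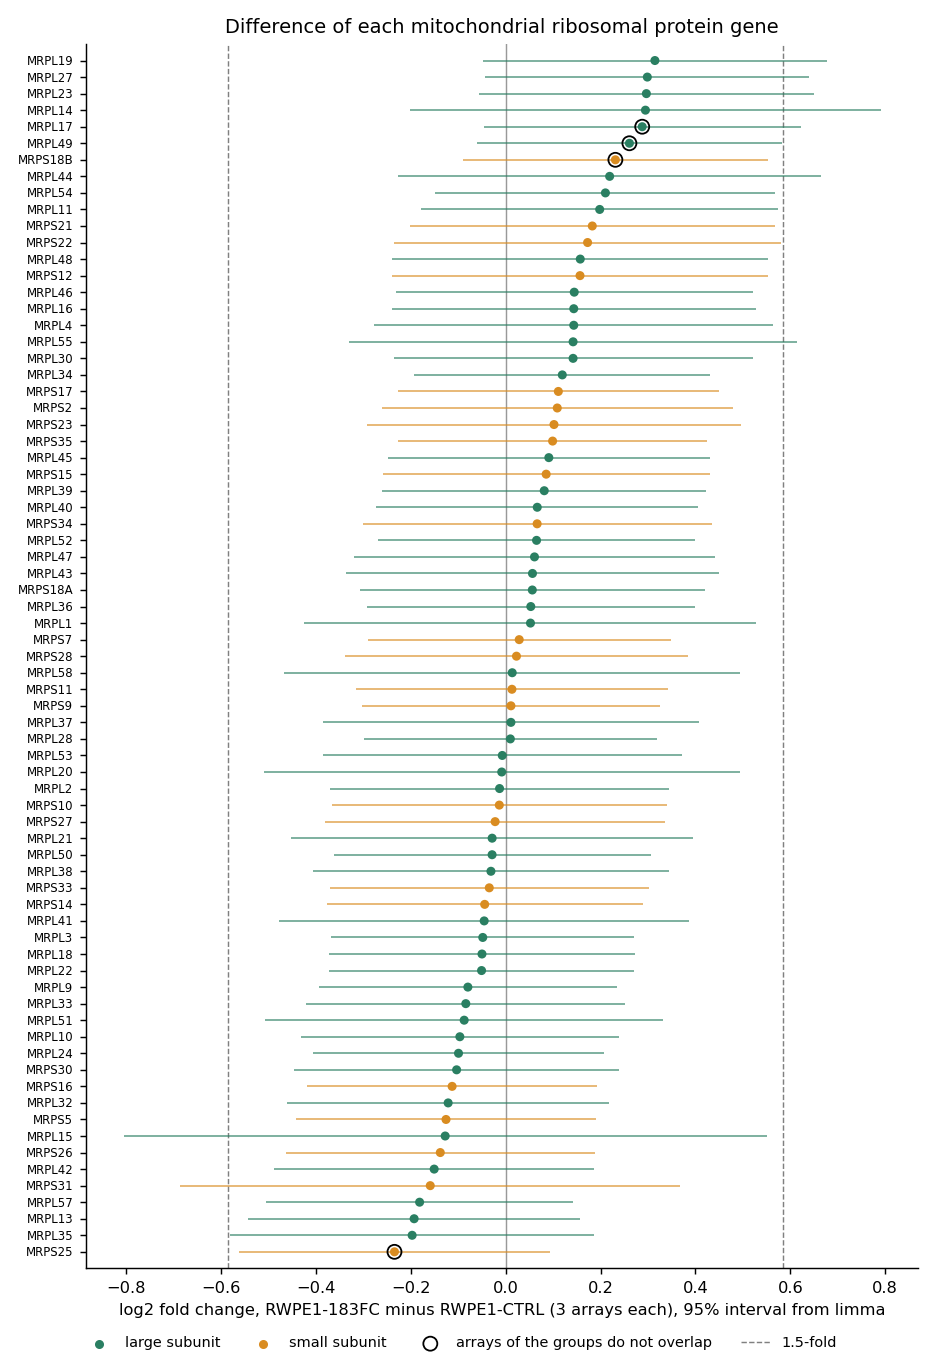
Each point is the log2 fold change of 1 member (RWPE1-183FC minus RWPE1-CTRL, 3 arrays each, x axis) with its 95% limma interval, ordered by size, with large-subunit genes in green, small-subunit genes in orange and black rings where the arrays of the groups do not overlap. The changes run from -0.23 (MRPS25) to 0.31 (MRPL19), every interval spans 0, and 64 of 73 stay between the dashed lines of 1.5-fold. The intervals are those of the fit without the filter.

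Both subunits of the mitoribosome showed this pattern. By its place in the ribosome and not by its symbol, 50 members belonged to the large subunit, among them MRPS30 and MRPS18A. Their median log2 fold change was 0.03, with 28 higher and 22 lower means. The 23 small-subunit members had a median of 0.02, with 14 higher and 9 lower. The median was 0.01 for 29 large-subunit proteins with a bacterial homologue and 0.06 for 19 listed as found only in mitochondria. It was 0.02 for 13 small-subunit proteins with a bacterial homologue and 0.02 for 10 listed as found only in mitochondria. The latter include MRPS18B, although it is related to a bacterial protein. All of these medians are smaller than 0.08, the SD of the members' median signal between replicate arrays. The median of the large-subunit proteins with a bacterial homologue turned to -0.01 with quantile normalization and was 0.11 without RWPE1-183FC replicate 2.

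In 4 members the arrays of the groups did not overlap, a count that was 2 with each array centred on its median and 3 with quantile normalization. For 3 of the 73 all RWPE1-183FC arrays lay higher, where 5.16% of all named genes did, and for 1 all lay lower, where 4.57% did, so that such genes were not more frequent among the members than among all genes. MRPL17, a large-subunit protein with a bacterial homologue, had log2 signals of 7.35, 7.205 and 7.23 in RWPE1-CTRL and 7.60, 7.35 and 7.70 in RWPE1-183FC. The lowest RWPE1-183FC array, replicate 2, exceeded the highest control array only in the third decimal. The difference between the group means was 0.29 (95% interval -0.05 to 0.62). MRPL49, a large-subunit protein of mitochondria, was at 6.49, 6.73 and 6.52 in RWPE1-CTRL and 6.84, 6.74 and 6.93 in RWPE1-183FC. In MRPL49 the replicate 2 arrays of the groups lay close to each other, and the log2 fold change was 0.26 (-0.06 to 0.58).

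MRPS18B, a small-subunit protein that belongs to a set of human paralogues related to a bacterial protein, was at 7.84, 7.78 and 7.60 in RWPE1-CTRL and 8.07, 7.98 and 7.87 in RWPE1-183FC. The log2 difference was 0.23 (-0.09 to 0.55). The value came from 1 of 7 clusters of this symbol with identical signals, so they add no independent measurement. Its paralogue MRPS18A, whose protein sits in the large subunit, was at 8.48, 8.39 and 8.02 in RWPE1-CTRL and 8.47, 8.33 and 8.27 in RWPE1-183FC, with overlapping arrays. MRPS18C was not analysed here. MRPS25, a small-subunit protein of mitochondria, was the 1 gene of the 4 that was lower, at 6.51, 6.48 and 6.72 in RWPE1-CTRL and 6.41, 6.40 and 6.19 in RWPE1-183FC. Here the log2 difference was -0.23 (-0.56 to 0.09). As these 4 genes were picked for groups that do not overlap, the exact permutation test (two-sided) gives p = 0.1 by construction. This is the smallest p that 3 arrays against 3 allow, and it adds no support.

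The other members with the largest differences had groups that overlapped. MRPL19, a large-subunit protein with a bacterial homologue, had the largest log2 fold change, 0.31 (-0.05 to 0.68). Its signals were 6.89, 6.48 and 6.58 in RWPE1-CTRL and 7.12, 6.81 and 6.96 in RWPE1-183FC, so that control replicate 1 lay among the RWPE1-183FC arrays. MRPL27, whose bacterial homologue lies near the peptidyl transferase centre, was at 6.05, 6.31 and 6.19 against 6.54, 6.29 and 6.61, with a log2 fold change of 0.30. In this gene control replicate 2 lay just above RWPE1-183FC replicate 2. MRPL23, whose bacterial homologue lies at the exit of the peptide tunnel, was at 5.24, 5.39 and 5.43 against 5.86, 5.42 and 5.66 (log2 fold change 0.30). MRPL14, on the face of the large subunit that meets the small one, was at 6.26, 5.88 and 6.56 against 6.74, 6.13 and 6.72 (log2 fold change 0.29). Its spread within each group, with SDs of 0.34 and 0.35 (n = 3 each), was larger than the difference between the groups, which was 0.12 when replicate 2 of RWPE1-CTRL was left out and 0.50 when that of RWPE1-183FC was. MRPS30, which structures place in the large subunit despite its symbol, had a log2 fold change of -0.10 and overlapping arrays.

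**Figure D2:**
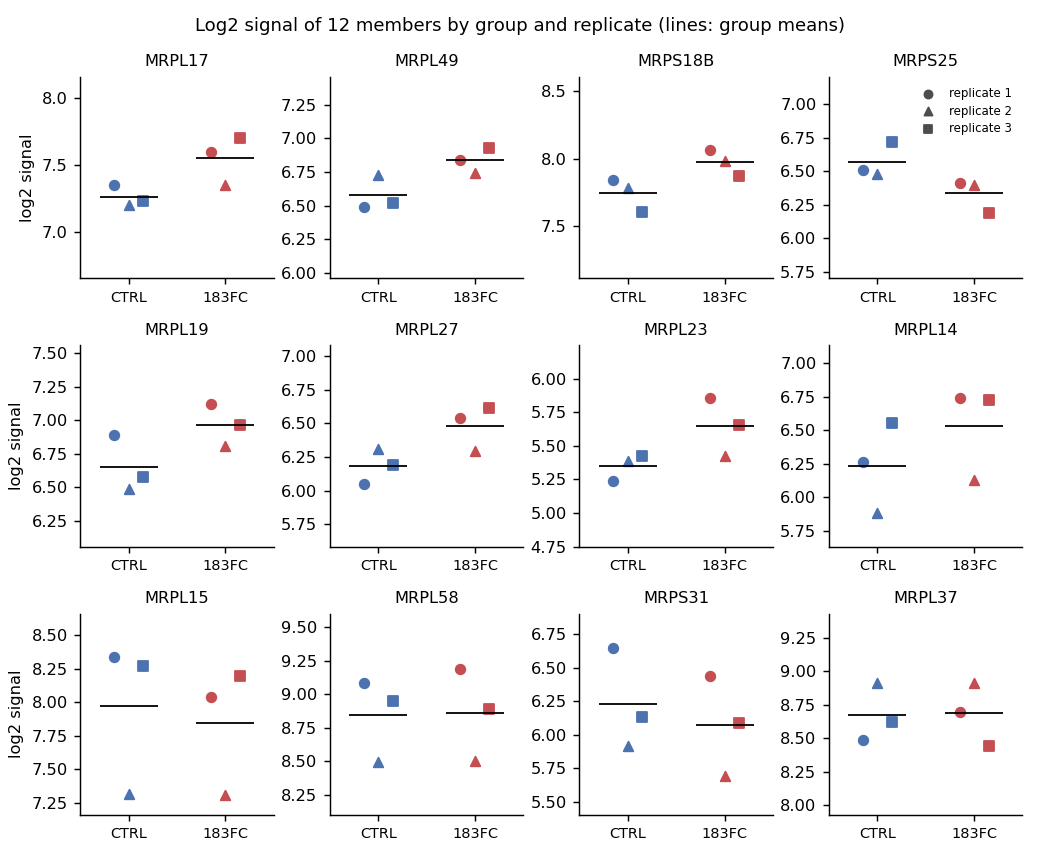
Log2 signal (y axis) of 12 members on each array by group, with markers for the replicate number and lines at the group means; every panel spans the same range of 1.5 log2 units. In the top row the groups do not overlap, and in MRPL15, MRPL58 and MRPS31 the replicate 2 arrays are the lowest of both groups.

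Replicate 2 of both groups held the lowest signals of many members. The difference between replicate 2 and the mean of replicates 1 and 3 had a median of -0.14 over the members in RWPE1-CTRL and -0.14 in RWPE1-183FC. Over all named genes these medians were 0.01 and 0.01, and over the genes above the median signal they were -0.001 and 0.02. The difference was below 0 for 49 of the 73 members (67.1%) in RWPE1-CTRL and for 53 (72.6%) in RWPE1-183FC, against 48.9% and 48.8% of all named genes. Replicate 2 was the lowest array of both groups for 27 members (37.0%), against 18.4% of all named genes and 24.3% of those above the median signal. It was the highest array of both groups for 6 members (8.22%), against 20.1% of all named genes. These values describe 1 array in each group and were not tested. The labels give no day or batch for the replicates. In these bulk samples fewer cells of a type and less RNA per cell cannot be told apart.

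Of the 4 members that stood out most in replicate 2, MRPL15, a large-subunit protein with a bacterial homologue, was at 8.34, 7.32 and 8.27 in RWPE1-CTRL and 8.04, 7.31 and 8.20 in RWPE1-183FC. Replicate 2 thus lay 0.99 and 0.80 below the mean of the other arrays of its group. MRPL14, given above, lay 0.53 and 0.60 below. MRPL58, a peptidyl-tRNA hydrolase that frees stalled mitoribosomes, was at 9.08, 8.50 and 8.95 against 9.19, 8.50 and 8.89. MRPS31, a small-subunit protein of mitochondria, was at 6.65, 5.92 and 6.14 against 6.44, 5.69 and 6.09. In each of these genes replicate 2 was the lowest array of both groups, so that leaving out 1 replicate 2 array alone shifted its group's mean. Without RWPE1-183FC replicate 2 the log2 difference between the groups was 0.14 in MRPL15 and 0.03 in MRPS31, against -0.13 and -0.16 with all arrays and -0.19 and -0.13 without both replicate 2 arrays. In these 2 genes each RWPE1-183FC array lay below the RWPE1-CTRL array of the same number. Without RWPE1-CTRL replicate 2 the difference was -0.16 in MRPL58, whose group means were 8.84 ± 0.31 and 8.86 ± 0.34 (SD, n = 3 each).

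Other members went the other way in replicate 2. MRPL37, a large-subunit protein of mitochondria, was at 8.48, 8.91 and 8.62 in RWPE1-CTRL and 8.70, 8.91 and 8.44 in RWPE1-183FC, where replicate 2 was the highest array of both groups. MRPL55 was 0.14 and 0.54 above the mean of replicates 1 and 3 in RWPE1-CTRL and RWPE1-183FC, and MRPL53 was 0.19 and 0.35 above it. Among the classes, replicate 2 was lowest in both groups for 15 of 29 large-subunit proteins with a bacterial homologue. The same held for 4 of 19 listed as found only in mitochondria. For the small subunit these counts were 4 of 13 and 3 of 10. Over the 73 members the replicate 2 differences of the groups correlated at r = 0.56, against 0.72 over the genes above the median signal, where genes share arrays and are not independent. Markers within the basal, luminal and leukocyte lists differed in sign in replicate 2. The fibroblast markers had medians of -0.12 and -0.04 in RWPE1-CTRL and RWPE1-183FC, and the endothelium markers of 0.22 and -0.12. The 4 basal markers had medians of -0.12 and 0.05 in RWPE1-CTRL and RWPE1-183FC, with KRT14 at -0.97 and -1.01, KRT5 at -0.17 and 0.07, KRT15 at -0.07 and 0.03 and EPCAM at 0.33 and 0.45. Of the luminal markers, KRT8 was at -0.68 and -0.09, KRT19 at -0.53 and -0.23 and KRT18 at -0.05 and -0.07. KLK2 was at -0.002 and 0.09, KLK3 at 0.07 and 0.13 and FOLH1 at -0.01 and 0.23. Of the leukocyte markers, CD68, a lysosomal protein, was at 0.66 and 0.65, CD14 at 0.03 and 0.48 and LYZ at 0.23 and -0.04. The part of cell state or RNA quality in these values was not tested.

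**Figure D3:**
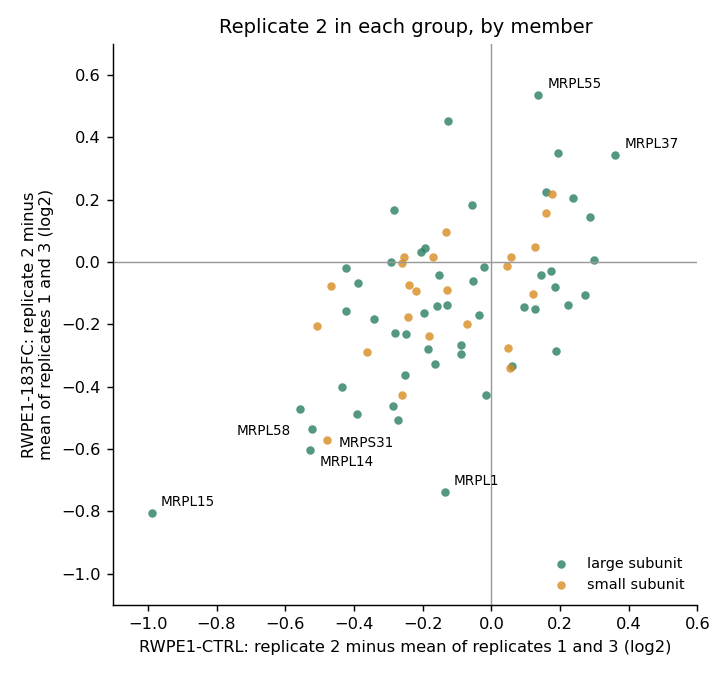
Each point is 1 member, with the log2 difference between replicate 2 and the mean of replicates 1 and 3 in RWPE1-CTRL (x axis) and RWPE1-183FC (y axis); colours give the subunit. Most members lie at the lower left, where 40 of 73 were below 0 in both groups, and 11 lie in the upper right.

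The members' medians by array showed the same pattern. As the deviation of each gene from its own mean over the 6 arrays, the median was 0.05, -0.10 and 0.02 in replicates 1, 2 and 3 of RWPE1-CTRL, and 0.14, -0.06 and -0.01 in those of RWPE1-183FC. RWPE1-183FC replicate 1 was thus the highest, with 56 of 73 members above their own mean, and RWPE1-CTRL replicate 2 the lowest, with 22. Large-subunit and small-subunit genes moved together, with medians of 0.13 and 0.15 on the first of these arrays and -0.11 and -0.09 on the second. The medians of the groups overlapped. Over the genes above the median signal the same medians stayed between -0.02 and 0.02.

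**Figure D4:**
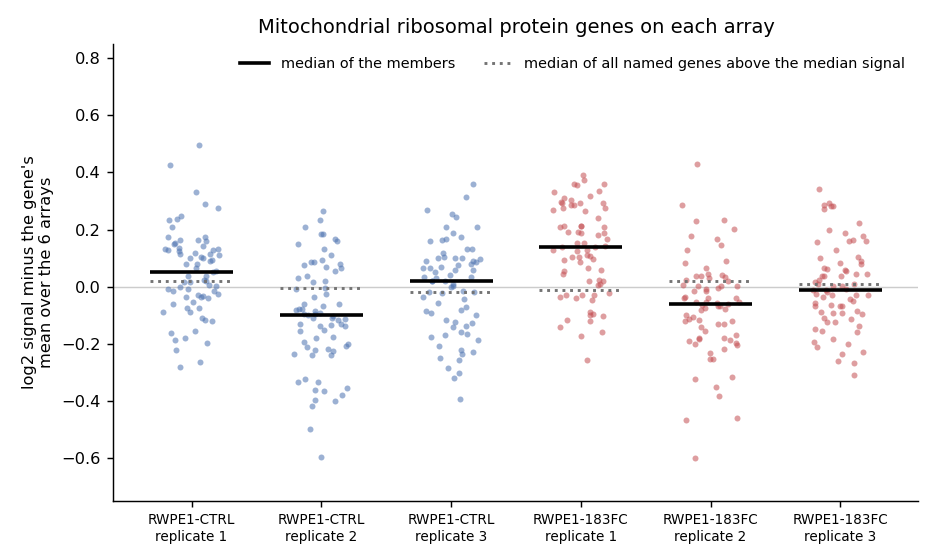
Each point is 1 of the 73 members on 1 array, as its log2 signal minus its mean over the 6 arrays (y axis), with the members' median as a solid line and that of all named genes above the median signal as a dotted line. The members' median is lowest in replicate 2 of each group (-0.10 and -0.06) and highest in RWPE1-183FC replicate 1 (0.14).

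Genes that work with the mitoribosome were compared in the same fit, where 45 genes of 6 lists were measured. Of the 29 that passed the filter 0 were called, against 0.939% of all genes that passed, and of all 45 without the filter 0 were called, against 0.242% of all named genes. Among 4 measured genes listed for the mitoribosome under other symbols, CHCHD1, a small-subunit protein, was at a log2 fold change of -0.23. DAP3, a GTP-binding small-subunit protein, was at -0.11. Of 11 translation factors, which had a median of 0.03, the initiation factor MTIF2 was at 0.31 (95% interval -0.11 to 0.74) and the RNA-binding protein SLIRP at -0.20. Of 21 assembly factors (median 0.05), the helicase DDX28 was at 0.28 and the pseudouridine synthase TRUB2 at 0.19. Of 2 aminoacyl-tRNA synthetases that serve both cytosol and mitochondria, KARS1 was at 0.15 and GARS1 at -0.05.

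Of 3 genes for transcription and copying of mitochondrial DNA, POLRMT, the mitochondrial RNA polymerase, had arrays that did not overlap between the groups. No other of the 45 list genes did, where 9.73% of all named genes did. POLRMT was at 6.68, 6.43 and 6.54 in RWPE1-CTRL and 6.76, 6.72 and 6.86 in RWPE1-183FC, a log2 fold change of 0.23 (-0.09 to 0.55), and did not pass the test. MTERF1, which ends transcription on mitochondrial DNA, was at 0.20. Of 4 regulators of nuclear genes for mitochondria, MYC was at 0.38 (-0.07 to 0.83) with overlapping arrays, and YY1 at -0.12. In replicate 2 the 21 assembly factors had medians of -0.11 in RWPE1-CTRL and -0.18 in RWPE1-183FC, and replicate 2 was the lowest array of both groups for 9 of the 21. The 11 translation factors were at 0.05 and -0.03. Nuclear subunits of complex I and the genes of mitochondrial DNA were not analysed here.

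The promoters of the members held motifs of regulators of mitochondrial genes. RefSeq promoters (GRCh38.p14, 250 bases before to 50 after the start) were matched for 65 of the 73 members and searched on both strands, with each promoter counted once and overlaps allowed. The core CCGGAAG, bound by ETS factors such as GABP, was present in 28 of the 65 (43.1%), against 14.97% of the 10749 promoters of genes named on the arrays. The core AAGATGGCG of YY1 was present in 12 (18.5%), against 2.88%. The core GCGCANGCG of NRF1 was also present in 12 (18.5%), against 11.35%. A TATAAA box was present in 2 (3.08%), against 8.49%, CCAAT in 29.2% against 36.0% and the GC box GGGCGG in 61.5% against 60.5%. These 6 motifs were chosen with their shares in some of these promoters already seen, and a match is a description and not a binding site.

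Stretches from 120 bases before to 30 after the start are shown for 3 members with such motifs, in capitals, and for MRPL19, the member with the largest difference, which held none of the ETS, YY1 and NRF1 cores. MRPL27 (chr17:50373155-50373304, minus strand) held the ETS core at 2 places, and MRPL17 (chr11:6683311-6683460, minus strand) 3 matches of the NRF1 core, the first 2 of which overlap. MRPS18A (chr6:43687762-43687911, minus strand) held the ETS and the YY1 core, and MRPL19 lies at chr2:75646663-75646812 on the plus strand.
MRPL27: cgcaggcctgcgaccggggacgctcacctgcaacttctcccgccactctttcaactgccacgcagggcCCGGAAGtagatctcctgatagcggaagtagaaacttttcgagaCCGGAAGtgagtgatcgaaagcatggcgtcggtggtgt
MRPL17: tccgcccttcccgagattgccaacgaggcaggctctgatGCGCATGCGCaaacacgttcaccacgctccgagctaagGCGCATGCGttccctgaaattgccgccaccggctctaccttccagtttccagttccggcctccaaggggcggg
MRPS18A: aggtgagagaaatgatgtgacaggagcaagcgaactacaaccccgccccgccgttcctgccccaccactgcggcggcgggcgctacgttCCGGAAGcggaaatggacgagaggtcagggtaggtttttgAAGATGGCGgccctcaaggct
MRPL19: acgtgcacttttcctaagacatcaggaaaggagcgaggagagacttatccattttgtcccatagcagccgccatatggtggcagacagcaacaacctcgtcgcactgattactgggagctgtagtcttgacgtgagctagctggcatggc
The members with the ETS core had a median log2 fold change of 0.06, and those without it had 0.05. With the YY1 core it was -0.02 for 12 members and without it 0.06 for 53. The replicate 2 difference in RWPE1-CTRL had a median of 0.005 with the YY1 core and -0.16 without it, while in RWPE1-183FC these were -0.12 and -0.10. None of these differences was tested.

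Several members may share signal with other sequences. MRPL42, MRPL45 and MRPS31 have pseudogenes that were measured as MRPL42P5, MRPL45P2 and MRPS31P5, with log2 fold changes of 0.19, -0.25 and -0.03, and how far their probes share signal was not tested. For 3 further members with a second cluster the clusters gave like differences, at 0.22 and 0.23 for MRPL44, -0.11 and -0.05 for MRPS16 and 0.11 and 0.09 for MRPS2. The second cluster of MRPL44 was dim, at a mean of 1.93. For MRPS2 the clusters differed in replicate 2, which was 0.18 and 0.22 above the mean of replicates 1 and 3 in the brighter cluster and 0.11 and 0.15 below it in the dimmer.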

How the data were processed

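Log2 values were deposited by the authors after RMA normalization of Affymetrix arrays with the R package oligo, per the study's methods, and the submitters' processing notes also name Partek. The clusters are those of the Human Gene 2.0 ST design, which the methods name for the annotation while naming an earlier version for the arrays, and 16098 of 53617 clusters carried 1 symbol. Symbols were looked up in RefSeq by Entrez identifier, and 0 changed. The brightest cluster of each symbol was kept. Groups and replicate numbers came from the sample titles. The comparison used limma 3.58.1 (lmFit, then eBayes) under R 4.3.3, fitted over all named genes (9583 with the filter), with Benjamini-Hochberg adjustment. The filter and thresholds follow the study's methods. On filtered genes eBayes estimated 176 prior degrees of freedom, against 5.80 on all named genes, so p-values differ between these fits. No depth applies to arrays, whose number limits the precision. The p-values measure only the spread between these samples, which in the filtered limma fit is mostly pooled over all genes that passed. The script was tested on simulated data. Figures were drawn with matplotlib 3.10.9.

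The members and lists were chosen with earlier results of these data known. Named members were those with the 8 largest changes, those without overlap, the 4 largest replicate 2 differences, the brightest and dimmest, the MRPS18 paralogues and MRPS30, and for each list its called genes or the 2 largest changes. MRPL37, MRPL53, MRPL55, MRPL44, MRPS16, MRPS2 and the pseudogenes were named after their values were seen. Deviations from the group means correlated at 0.101, 0.511 and 0.290 between arrays of replicates 1, 2 and 3. All were over 0.1, but the first was below the highest value between different numbers (0.214). Equal replicate numbers were therefore treated as pairs in a blocked fit, which was run as an alternative. The main fits, their intervals and the permutation test did not use pairs. The basis for pairs is these correlations, as no source describes a shared day or batch. Other alternatives covered each array left out, normalization, filter, weights, the variance prior, thresholds and several clusters per symbol.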

Additional observations from a re-analysis of the deposited data

How the results depend on the processing

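No member was called under any of 17 alternatives for that count, including each array left out, no filter and array weights, and an FDR under 0.05 could add none. With the replicate number as a block 0 members were called, and the lowest adjusted p of a member was 0.567 with the filter, that of MRPL19 (limma). In the block without the filter MRPL19 alone had an unadjusted p under 0.05, at 0.0387. The block, added after the data were seen for the lists, also called 0 of the 29 list genes that passed the filter, as did the unfiltered fit of all 45. The number of members without overlap was 4, and 2 with arrays centred on their median. With 1 array left out, the members' median log2 fold change ran from -0.02 to 0.07. That of the large-subunit proteins with a bacterial homologue ran from -0.056 to 0.11, and log2 fold changes ran from -0.46 to 0.14 in MRPL15, from -0.16 to 0.19 in MRPL58, from -0.34 to 0.049 in MRPS31 and from -0.081 to 0.15 in MRPS18A, none of which was called. MRPL58 also turned to -0.0031 with quantile normalization. MRPL14, MRPL17, MRPL19, MRPL23, MRPL27, MRPL49, MRPS18B, MRPS25 and MRPS30 kept their direction in all alternatives run, but with 1 array left out MRPL14 ran from 0.12 to 0.50, MRPL23 from 0.19 to 0.41 and MRPS30 from -0.20 to -0.027. Over all named genes, 90 were called with the filter, 36 without it, and 162 and 109 in the same fits with the replicate block. The medians of replicate 2 stayed below 0 in both groups under the 3 other normalizations, from -0.13 to -0.21. With 3 arrays in each group, a change of 1.5-fold stays within the intervals of 9 members in the fit without the filter.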
